A study of Mus musculus with 6 samples.

Results

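Susd2 and Gpr83 are 2 of the 48397 genes in the table of read counts from stage 0 iNKT cells, the earliest invariant natural killer T cells of the thymus, just after their positive selection. They encode proteins of the cell surface and were picked because their reads were higher in every SKG library than in any BALB/c library, so their difference between the genotypes is given here as a description, without a test. The libraries came from BALB/c mice that are wild type (WT) and from SKG mice, which are on the same BALB/c background and carry a hypomorphic mutation of Zap70, the kinase that passes on the signal of the TCR. All mice were 8 to 10 weeks old, and each genotype gave 3 libraries. A library was made from about 1000 cells sorted from the pooled thymi of 3 mice as PBS57-CD1d tetramer+, CD44-, CD24+, CD69+, CD4lo/- and CD8-, to which the study adds TCRβ+, and each replicate is therefore a pool of mice. SKG mice carry the mutation in all their cells, not in iNKT cells alone, and the BALB/c mice were purchased, so that genotype and colony of origin cannot be told apart. Because these are bulk samples, fewer cells that express a gene and less RNA per cell cannot be told apart either.

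Susd2 encodes a protein that spans the membrane once and carries sushi, AMOP, von Willebrand factor D and somatomedin B domains outside the cell. It is known to bind galectin-1, and in CD8 T cells it is known to damp signals of the IL-2 receptor. Gpr83 encodes a receptor coupled to G proteins that was first found as a gene induced by glucocorticoids in a T-cell line, and it is known as a marker of regulatory T cells. Its described ligands are PEN, a peptide cut from the precursor encoded by Pcsk1n, and the secreted protein Fam237a.

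On GRCm38, Susd2 (ENSMUSG00000006342) lies on the minus strand of chromosome 10 from 75636706 to 75644008, and Gpr83 (ENSMUSG00000031932) lies on the plus strand of chromosome 9 from 14860210 to 14870789. In the GENCODE annotation, 0 other genes overlap the span of either gene, so their reads are not shared with a neighbour. The exons of Susd2 cover 3435 bases in 13 blocks, and those of Gpr83 cover 5095 bases in 4 blocks. Each gene has 2 coding transcripts, and the counts per gene add them up. In Susd2 the coding transcripts have 15 and 13 coding exons, and they share the first one, which starts the protein. It is printed with the start codon in capitals, to show where the counted message begins to encode the protein.
Susd2, first coding exon, chr10:75643874-75643943, minus strand: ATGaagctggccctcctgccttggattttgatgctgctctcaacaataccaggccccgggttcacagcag

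The coding transcripts of Gpr83 differ by 1 exon of 126 bases, or 42 codons, which lies within the coding sequence and which the shorter transcript skips. It is printed because the receptor with and without it cannot be told apart in these counts.
Gpr83, skipped coding exon, chr9:14864772-14864897, plus strand: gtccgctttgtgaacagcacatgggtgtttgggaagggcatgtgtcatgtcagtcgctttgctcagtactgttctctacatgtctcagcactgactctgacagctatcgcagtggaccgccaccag

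The 250 bases before the start site of Gpr83 are shown from the RefSeq table of GRCm38.p6, since NFAT and Egr factors act downstream of the TCR. Susd2 has no entry in that table. The letters GNGNGGGNG, a loose form of the Egr site, were found 2 times on either strand, and the matches, which overlap each other, are in capitals. The NFAT letters GGAAA, the AP-1 letters TGANTCA, the Runx letters TGTGGT and the glucocorticoid receptor half-site AGAACA were found 0 times.
Gpr83, promoter, chr9:14859960-14860209, plus strand: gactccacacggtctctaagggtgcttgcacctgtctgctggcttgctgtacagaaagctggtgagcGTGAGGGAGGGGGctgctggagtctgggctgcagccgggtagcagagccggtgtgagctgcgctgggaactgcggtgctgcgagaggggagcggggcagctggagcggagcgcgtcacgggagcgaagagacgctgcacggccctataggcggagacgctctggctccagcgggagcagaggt

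Among 32851 promoters of the same length, 35.8% hold the Egr letters, 55.6% the NFAT letters, 6.75% the AP-1 letters, 14.0% the Runx letters and 16.1% the half-site. The window of Gpr83 has a GC content of 66.8%. A match of letters is a description of the sequence and does not show that a factor is bound.

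Reads counted on genes ranged from 37176544 to 43115544 per library, and between 10835 and 14791 genes reached 10 reads, with both extremes in SKG. The common dispersion between libraries of 1 genotype was 0.842, a coefficient of variation of 91.8%. Cd69, Egr2, Zbtb16 and Cd3e, genes of the sorted cells, had reads in every library. This does not check purity, since Cd8a and Dntt of double-positive thymocytes did too. BALB/c replicate 1 had the most reads of Cd8a (4985), of Dntt (3595) and of Hbb-bs (1428), an erythroid gene. Cd69, an early activation marker used in the sort, averaged 353 ± 39.9 CPM in BALB/c (SD, n = 3) against 193 ± 50.4 (SD, n = 3) in SKG, and Egr2 was at 1351 ± 230.1 (SD, n = 3) and 777 ± 249 (SD, n = 3). Zap70 mRNA was at 448 ± 65.4 CPM (SD, n = 3) in BALB/c against 356 ± 45.9 (SD, n = 3) in SKG, and since the counts per gene do not show the mutation, this level does not check the labels. CPM are counts scaled by library size with TMM factors.

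Susd2 was low in BALB/c and well expressed in SKG stage 0 cells. It had 113, 131 and 249 reads in BALB/c replicates 1 to 3 against 3547, 4020 and 3210 reads in SKG replicates 1 to 3. Scaled to library size, these were 2.74, 3.53 and 5.51 CPM in BALB/c and 88.0, 103 and 88.8 CPM in SKG. The genotypes therefore did not overlap, with the lowest SKG library 16-fold above the highest BALB/c library. The SKG libraries lay close together, within 1.17-fold of each other, whereas the BALB/c libraries differed by up to 2.01-fold. BALB/c averaged 3.93 ± 1.43 CPM (SD, n = 3 libraries) against 93.4 ± 8.68 CPM (SD, n = 3) in SKG, and edgeR fitted a log2 fold change of 4.57 (standard error 0.41), SKG over BALB/c, or 23.8-fold.

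Gpr83 was present in both genotypes and also higher in SKG. Its reads numbered 740, 401 and 806 in BALB/c and 6053, 3334 and 6237 in SKG. This gave 17.9, 10.8 and 17.8 CPM in BALB/c and 150, 85.8 and 172 CPM in SKG. Again the genotypes did not overlap, and the lowest SKG library, replicate 2, was 4.78-fold above the highest BALB/c library, replicate 1. The SKG libraries differed by up to 2.01-fold and the BALB/c libraries by up to 1.66-fold. BALB/c averaged 15.5 ± 4.09 CPM (SD, n = 3 libraries) against 136 ± 45.0 CPM (SD, n = 3) in SKG, with a fitted log2 fold change of 3.13 (standard error 0.39), or 8.76-fold.

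**Figure D1:**
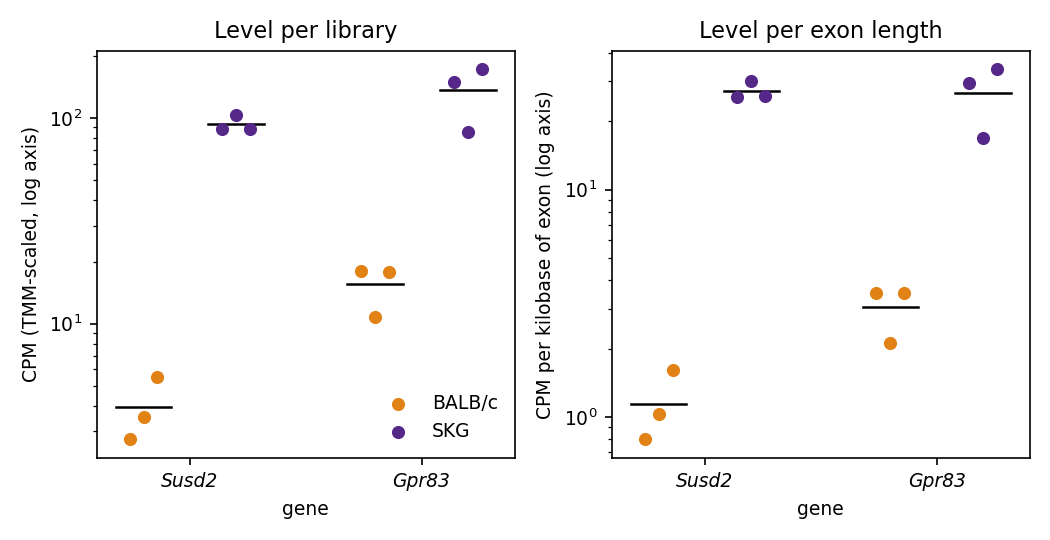
Levels of Susd2 and Gpr83 in each of the 6 libraries, as CPM on the left and as CPM per kilobase of exon on the right, both on log axes, with 1 point per library and a line at the mean of 3. For both genes the SKG points lie above the BALB/c points, and in SKG the means per kilobase, 27.2 and 26.7, are nearly level.

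To compare the genes with each other, CPM were divided by exon length in kilobases. On this scale Susd2 averaged 1.144 ± 0.416 in BALB/c (SD, n = 3) against 27.2 ± 2.53 (SD, n = 3) in SKG, and Gpr83 averaged 3.05 ± 0.803 in BALB/c (SD, n = 3) against 26.7 ± 8.84 (SD, n = 3) in SKG. Thus Gpr83 was the more abundant of the pair in each BALB/c library, while in SKG the means differed by less than the spread between libraries. The level of Susd2 per kilobase divided by that of Gpr83 was 0.226, 0.485 and 0.458 in BALB/c and 0.869, 1.79 and 0.763 in SKG. SKG replicate 2 stood apart, with the highest Susd2 and the lowest Gpr83 of its group, and it was the only library in which Susd2 exceeded Gpr83. Among 11913 tested genes with an annotated length, the mean level of Susd2 per kilobase stood at percentile 18.1 in BALB/c and 80.5 in SKG, and that of Gpr83 stood at percentiles 33.5 and 80.1.

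Replicates of 1 genotype varied less for these genes than for most. The pooled SD of log2 CPM (prior count 2) within a genotype was 0.37 for Susd2 and 0.48 for Gpr83, which lay at percentiles 26.3 and 38.0 among the 12312 tested genes. Neither gene had a library with 0 reads, and the lowest count of the pair was 113. By the size of the fold change toward SKG, Susd2 ranked 42 and Gpr83 ranked 157 of 12312 tested genes. Of the 42 genes with a fold change at least as large as that of Susd2, itself included, 32 had 0 reads in at least 1 library, and so did 106 of the 157 genes at or above Gpr83. Among the 6753 tested genes with a mean level at least that of Susd2, Susd2 alone reached its fold change, and the same held for Gpr83 among the 4820 genes with a mean level at least its own. By the gap between the lowest SKG and the highest BALB/c library, Susd2 ranked 5 and Gpr83 ranked 22. These ranks rest on the values for which the genes were picked.

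**Figure D2:**
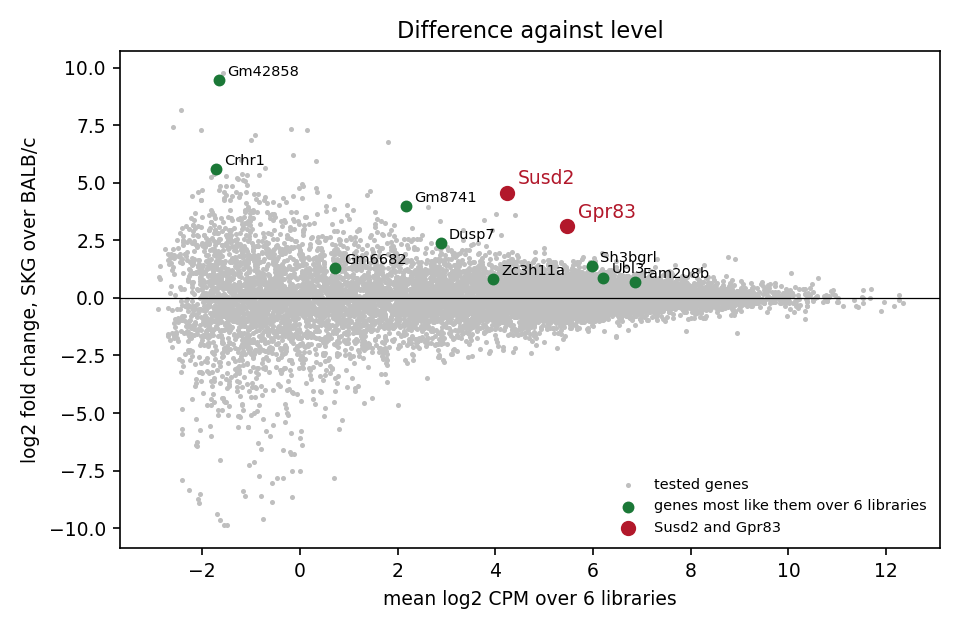
Log2 fold change, SKG over BALB/c, against mean log2 CPM over the 6 libraries for the 12312 tested genes (grey), Susd2 and Gpr83 (red) and the genes whose pattern over the libraries was most like theirs (green). Susd2 at 4.57 and Gpr83 at 3.13 stand above the grey points at their own levels, while the larger fold changes belong to genes with lower counts.

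A gene was called at an adjusted p under 0.1 and at least 1.5-fold. EdgeR's quasi-likelihood test called 0 of the 2 genes, where the background was 0% of 12312 genes. Without a filter on low counts it called 2 of 2, against 0.00771% of 25935 genes, and with a stricter filter it called Susd2 alone, against 0.0118% of 8459. DESeq2 without shrinkage called 2 of 2, where 2.58% of 14365 genes were called, 1.23% as higher in SKG and 1.34% as higher in BALB/c. With shrinkage it also called 2 of 2, where 1.59% were called, 0.814% as higher in SKG and 0.78% as higher in BALB/c. Limma-voom called 0 of 2, against 0%. An unadjusted p under 0.05 in edgeR was found for 671 genes, or 5.45%, of which 3.07% in favour of SKG and 2.38% in favour of BALB/c. All SKG libraries lay above all BALB/c libraries for 6.77% of the tested genes, and below them for 7.12%. Susd2 and Gpr83 were picked on this contrast and are among the genes counted, so these shares do not test them.

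The size of the difference depended little on the analysis. Over 16 settings, the log2 fold change of Susd2 lay between 4.34 and 4.94 and that of Gpr83 between 2.92 and 3.39. The lowest value of Susd2 came from the shrunken DESeq2 estimate and the highest from the block on library number. With each library left out in turn, Susd2 ranged from 4.37 without BALB/c replicate 1 to 4.90 without BALB/c replicate 3, which had the most Susd2 reads of its group. Gpr83 ranged from 2.92 without BALB/c replicate 2 to 3.39 without SKG replicate 2, the libraries with the lowest Gpr83 of their groups.

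**Figure D3:**
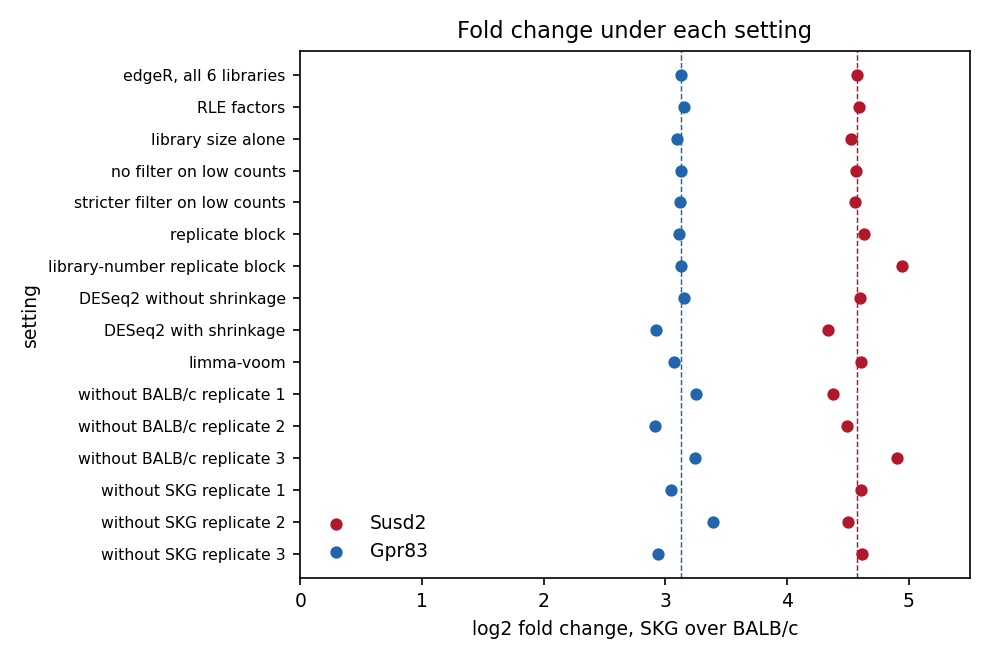
Log2 fold change, SKG over BALB/c, of Susd2 (red) and Gpr83 (blue) under each of 16 settings, with dashed lines at the values from edgeR on all 6 libraries, 4.57 and 3.13. All points of Susd2 lie to the right of all points of Gpr83.

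The genes most like each of the pair were taken by Pearson's r of log2 CPM over the 6 libraries. This is a description only, since the libraries form 2 clusters by genotype and share their depth and preparation. For Susd2 these were Zc3h11a (r = 0.991), which encodes a protein of mRNA export, Gm6682 (0.991), Crhr1 (0.988), Dusp7 (0.984), a phosphatase of MAP kinases, and Sh3bgrl (0.979). For Gpr83 they were Gm8741 (0.996), Fam208b (0.995), Gm42858 (0.988), Crhr1 (0.987) and Ubl3 (0.987), a ubiquitin-like protein anchored to membranes. Crhr1, the receptor of corticotropin-releasing hormone, was thus among the 5 closest to both, although at low counts of 1, 0 and 2 reads in BALB/c against 60, 41 and 46 in SKG. Dusp7 had 97, 120 and 195 reads in BALB/c against 640, 871 and 473 in SKG. The r between Susd2 and Gpr83 was 0.958, which placed Gpr83 at rank 34 for Susd2 and Susd2 at rank 29 for Gpr83. Several of the genes nearest in pattern differed less in size. Fam208b had a log2 fold change of 0.69 ± 0.18 (SE, edgeR adjusted p = 0.686) and Sh3bgrl had 1.401 ± 0.26 (SE, edgeR adjusted p = 0.617). DESeq2 without shrinkage called both, where 1.23% of 14365 genes were called as higher in SKG. Both were picked for likeness to a gene that separates the genotypes, so these p-values and calls only describe them.

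Neighbouring genes were examined to see whether the difference extended along the chromosome. Within 500 kb of the start of Susd2, 18 genes were tested, of which 0 passed an FDR of 0.1 and 0 had an unadjusted p under 0.05 (edgeR). Their median log2 fold change was -0.02, as over all tested genes (-0.02). The nearest tested genes were Ggt5, 54.7 kb to the left, with 277, 0 and 87 reads in BALB/c against 7, 280 and 0 in SKG, and Cabin1, a calcineurin-binding protein gene 120 kb to the right, at 179 ± 66.6 CPM (SD, n = 3) in BALB/c against 215 ± 52.5 (SD, n = 3) in SKG. DESeq2 without shrinkage called 0 of these neighbours.

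Around Gpr83, 16 genes were tested, with a median log2 fold change of 0.22, and 0 passed the FDR in edgeR. Ankrd49, 75.4 kb to the left, was at 36.2 ± 15.9 CPM (SD, n = 3) in BALB/c against 36.0 ± 25.03 (SD, n = 3) in SKG. Izumo1r, which encodes folate receptor 4 and, like Gpr83, marks regulatory T cells, lies 43.7 kb to the right. It was abundant in both genotypes, at 407 ± 15.3 CPM (SD, n = 3) in BALB/c against 436 ± 93.4 (SD, n = 3) in SKG (log2 fold change 0.10 ± 0.18 SE, edgeR adjusted p = 0.991), and its libraries overlapped. An unadjusted p under 0.05, found for 3.07% of tested genes as higher in SKG, was found for Panx1, a membrane channel gene 185 kb to the right (log2 fold change 0.73 ± 0.22 SE, edgeR adjusted p = 0.804), and for Endod1, 479 kb to the left. Endod1 had 8629, 5643 and 9316 reads in BALB/c against 15096, 19923 and 16106 in SKG (log2 fold change 1.23 ± 0.20 SE, edgeR adjusted p = 0.617). DESeq2 without shrinkage called Endod1, where 1.23% of 14365 genes were called as higher in SKG. Libraries did not overlap and were higher in SKG for 3 of the 16 neighbours, where the background was 6.77% of tested genes.

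**Figure D4:**
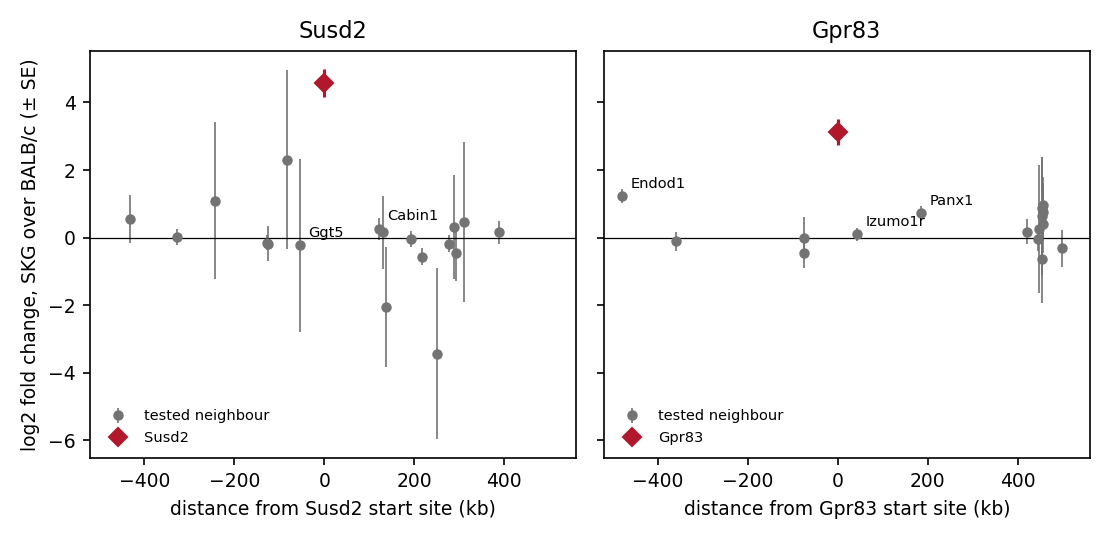
Log2 fold change, SKG over BALB/c, with its standard error, of tested genes within 500 kb of the start site of Susd2 (left) and of Gpr83 (right), against distance in kb, with the named gene as a red diamond. Izumo1r at 0.10 and Cabin1 at 0.26 lie near 0, while Endod1 at 1.23 is the farthest on the left of Gpr83.

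Of the 5 other Susd genes, 3 were tested and 0 passed the FDR or had an unadjusted p under 0.05 (edgeR), with a median log2 fold change of 0.50. Susd6 was the most abundant, with 2890, 2682 and 5124 reads in BALB/c against 5758, 6438 and 3348 in SKG. Its libraries overlapped (log2 fold change 0.65 ± 0.31 SE, edgeR adjusted p = 0.952). Susd3 ranged from 179 to 641 reads in BALB/c and from 117 to 798 in SKG, and Susd1 had 0 reads in 1 library of each genotype. Of 22 further surface and matrix genes with a sushi, AMOP or somatomedin B domain, 7 were tested and 0 had an unadjusted p under 0.05. Their median log2 fold change was -0.28, and the most abundant were Selplg, Cr1l and Enpp1. A difference of the size found for Susd2 was not seen among the tested relatives by domain, whose log2 fold changes lay between -1.21 and 1.88.

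Galectin-1 is the known binding partner of Susd2, and genes with related symbols were listed with it. Of 10 genes with an Lgals symbol, 8 were tested and 0 had an unadjusted p under 0.05 (edgeR), with a median log2 fold change of -0.14. They include Lgals3bp, which encodes a galectin-binding protein and not a galectin. Lgals1, which encodes galectin-1, had 2159, 1200 and 1439 reads in BALB/c against 1485, 995 and 1179 in SKG, so the genotypes overlapped. Lgals9 was the most abundant, from 10035 to 14851 reads in BALB/c and from 8160 to 10221 in SKG, followed by Lgals3bp and Lgals8.

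In the IL-2 receptor pathway, 9 of 15 genes were tested, 0 passed the FDR in edgeR and 2 had an unadjusted p under 0.05, both higher in SKG, where the background was 3.07% of tested genes. The median log2 fold change was 0.24. Stat5a, a transcription factor activated by the receptor, had 3313, 4366 and 5303 reads in BALB/c against 8314, 7627 and 6728 in SKG (log2 fold change 0.90 ± 0.20 SE, edgeR adjusted p = 0.619). Jak1, a kinase bound to the receptor, had 27938, 22602 and 29470 reads in BALB/c against 44666, 31639 and 36067 in SKG (log2 fold change 0.59 ± 0.15 SE, edgeR adjusted p = 0.686). DESeq2 without shrinkage called Stat5a and Jak1, where 1.23% of 14365 genes were called as higher in SKG. The receptor chains overlapped between the genotypes. Il2rb, the beta chain, was from 6599 to 11265 reads in BALB/c and from 7835 to 10745 in SKG, Il2rg, the gamma chain, was from 18020 to 26078 and from 18124 to 18629, and Il2ra, the alpha chain, was erratic at 434, 1 and 16 reads against 209, 3 and 1254. Stat5b was the other of the abundant members, with a log2 fold change of 0.45 ± 0.23 (SE, edgeR adjusted p = 0.953).

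The known ligand of Gpr83 was not detected in the sorted cells at this depth. Pcsk1n, the precursor of PEN, had 0 reads in all 6 libraries, as did Pcsk1 and Pcsk2, the proteases that cut such precursors. By counting error alone, 0 counts allow up to 3 reads per library. Libraries of 1 genotype varied more than this, as Ggt5 had 277, 0 and 87 reads in BALB/c. A count of 0 therefore does not bound the level at 3 reads. Cpe, a carboxypeptidase that trims such peptides, had 7 reads in 1 BALB/c library and 3 in 1 SKG library. Fam237a and Fam237b are not among the rows analysed here. Of 11 receptors reported to pair with or resemble Gpr83, 7 had 0 reads in every library and Gpr171, the receptor of a second Pcsk1n peptide, was the one tested. Gpr171 had 1264, 543 and 1824 reads in BALB/c against 991, 2088 and 733 in SKG, which overlapped (log2 fold change 0.20 ± 0.59 SE, edgeR adjusted p = 0.991).

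Among 68 other genes with a numbered Gpr symbol, 17 had 0 reads in all libraries and 18 were tested. Their median log2 fold change was 0.03. In edgeR 0 passed the FDR, and 1 of the 18 had an unadjusted p under 0.05, where the background was 5.45% of tested genes, so the count is near the background. This was Gpr153, an orphan receptor gene, with 74, 199 and 285 reads in BALB/c against 1917, 1452 and 2082 in SKG (log2 fold change 3.40 ± 0.65 SE, edgeR adjusted p = 0.617). The genotypes did not overlap for it, and its log2 fold change was of the size of that of Gpr83. DESeq2 without shrinkage called Gpr153, where 1.23% of 14365 genes were called as higher in SKG. The most abundant of these genes, Gpr174, Gpr108 and Gpr89, had log2 fold changes of -0.05, 0.16 and 0.47, with standard errors of 0.20, 0.25 and 0.32. The genes were listed by symbol, which does not make them a family.

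The signalling parts that serve receptors such as Gpr83 ranged from abundant to undetected, as Gnai1, an inhibitory alpha subunit, had 0 reads in every library. Of 27 genes for G proteins, phospholipase C beta, arrestins and receptor kinases, 23 were tested, 0 passed the FDR in edgeR and 2 had an unadjusted p under 0.05, both higher in SKG, where the background was 3.07%. The median log2 fold change was 0.23. Grk6, a kinase that phosphorylates active receptors, had 3209, 5566 and 8377 reads in BALB/c against 11757, 8870 and 13601 in SKG (log2 fold change 1.12 ± 0.35 SE, edgeR adjusted p = 0.830). Gnb1, a G protein beta subunit, was at 201 ± 93.3 CPM (SD, n = 3) in BALB/c against 448 ± 136 (SD, n = 3) in SKG (log2 fold change 1.15 ± 0.42 SE, edgeR adjusted p = 0.847). DESeq2 without shrinkage called 0 of the list. Gnaq, the Gq alpha subunit, was at the edge of detection, with 70, 6 and 10 reads in BALB/c against 23, 0 and 51 in SKG. Gna11, an alpha subunit of the same class, was detected throughout, at 564, 774 and 896 reads against 530, 2296 and 3272. Its libraries overlapped (log2 fold change 1.58 ± 0.70 SE, edgeR adjusted p = 0.948). The most abundant members were Gnai3 and Gnai2, inhibitory alpha subunits, with log2 fold changes of 0.26 (standard error 0.22) and 0.00 (standard error 0.17), the latter with a sign that depended on the scaling.

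Gpr83 is known as a glucocorticoid-induced gene, so the receptor and genes that respond to it were listed. Of 15 genes, 13 were tested, 0 passed the FDR in edgeR, 2 were higher in SKG and 1 was higher in BALB/c at an unadjusted p under 0.05, where the backgrounds were 3.07% and 2.38% of tested genes. A log2 fold change above 0 was found for 11 of the 13, and for 49% of all tested genes. It was also found for 7 of 9 IL-2 receptor genes, 5 of 7 regulatory T-cell markers and 14 of 23 G protein genes. The counts were 9 of 18 for Gpr symbols and 3 of 8 for Lgals symbols. Among the 11, values such as those of Nr3c1 and Dusp1 were smaller than their standard errors. The lists were not tested as sets. The median log2 fold change was 0.37. Nr3c1, the glucocorticoid receptor, had 11298, 8481 and 10474 reads in BALB/c against 9400, 11269 and 8475 in SKG (log2 fold change 0.04 ± 0.16 SE, edgeR adjusted p = 0.993). Fkbp5, a co-chaperone of the receptor, had 2703, 1651 and 2375 reads in BALB/c against 3193, 5202 and 10391 in SKG (log2 fold change 1.62 ± 0.48 SE, edgeR adjusted p = 0.815), and without SKG replicate 3 its log2 fold change was 0.99. Txnip, an inhibitor of thioredoxin, had a log2 fold change of 1.00 ± 0.39 (SE, edgeR adjusted p = 0.877), and Zfp36, a protein that destabilizes mRNA, had -0.85 ± 0.30 (SE, edgeR adjusted p = 0.834). Tsc22d3, a classical target of glucocorticoids, overlapped between the genotypes, at 1084, 105 and 295 reads against 833, 763 and 172. Dusp1 was among the 3 most abundant, with a log2 fold change of 0.44 (standard error 0.52). DESeq2 without shrinkage called 0 of the list.

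**Figure D5:**
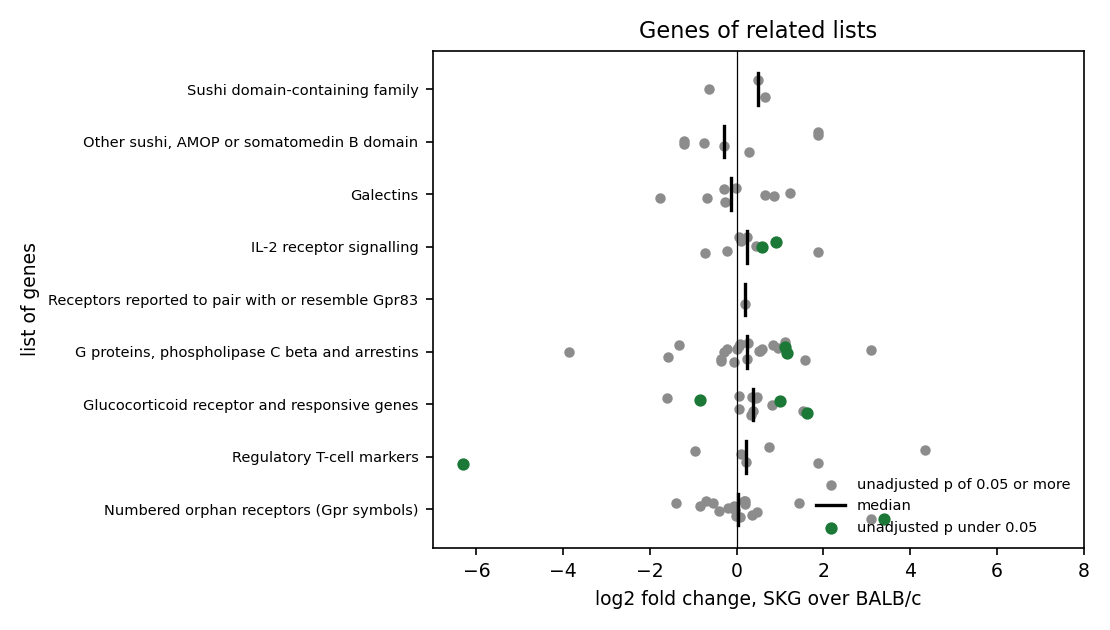
Log2 fold change, SKG over BALB/c, of the tested genes in each related list, with a black bar at the list's median and green points for an unadjusted p under 0.05 in edgeR. Medians of the lists lie between -0.28 and 0.50, and the outermost green points are Gpr153 at 3.40 and Tnfrsf4 at -6.30.

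Markers of regulatory T cells were set beside Gpr83 because these cells express it. Foxp3, their defining transcription factor, had 20 reads in SKG replicate 1 and 0 in the other 5 libraries, and Lrrc32 had at most 4 reads in a library. Of the 9 markers, 7 were tested, 0 passed the FDR in edgeR, and the median log2 fold change was 0.21. The markers' summed level ranged from 627 to 691 CPM in BALB/c and from 672 to 869 CPM in SKG (exact permutation test, two-sided p = 0.3, where 0.1 is the smallest possible), and 0 of the 9 lacked reads altogether. Most of this sum came from Izumo1r and from Ikzf2, a transcription factor, which averaged 214 ± 44.9 CPM in BALB/c (SD, n = 3) against 248 ± 42.8 (SD, n = 3) in SKG. Tnfrsf18 was at 21.5 ± 10.6 CPM (SD, n = 3) in BALB/c against 36.2 ± 12.5 (SD, n = 3) in SKG. Ctla4 had the list's highest log2 fold change, 4.34 ± 2.81 (SE, edgeR adjusted p = 0.982). Its reads were 2, 0 and 29 in BALB/c against 0, 24 and 492 in SKG. Il2ra had 434, 1 and 16 reads against 209, 3 and 1254, and Nrp1 had 0, 199 and 168 against 14, 0 and 155. Libraries of these 3 genes overlapped. Of the 7 tested markers, 5 had a log2 fold change above 0. Tnfrsf4, a costimulatory receptor also found on activated T cells, went the other way from Gpr83, with 151, 216 and 73 reads in BALB/c against 1, 2 and 2 in SKG (unadjusted p = 0.00128, adjusted p = 0.617 from edgeR). DESeq2 without shrinkage called Tnfrsf4, where 1.34% of 14365 genes were called as higher in BALB/c.

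Among 11 marker lists of cell types, the summed level of 1 separated the genotypes in the same direction as Susd2 and Gpr83, that of gamma-delta T cells. Of single tested genes, 6.77% separated in this direction, so 1 of 11 lists is near that share. It ranged from 12.7 to 29.7 CPM in BALB/c and from 35.0 to 87.6 CPM in SKG (exact permutation test, two-sided p = 0.1, the smallest possible), and all 5 of its markers had reads. Trdc, the constant gene of the delta chain, was level at 15.4 ± 6.97 CPM (SD, n = 3) in BALB/c against 15.01 ± 2.19 (SD, n = 3) in SKG. Among constant genes of the gamma chain, Tcrg-C4 was at 29, 2 and 207 reads in BALB/c against 339, 342 and 1346 in SKG. Tcrg-C2 was at 13, 1 and 40 reads in BALB/c against 93, 81 and 1089 in SKG. Tcrg-C1, the other such gene of the list, overlapped between the genotypes, at 0, 179 and 250 reads against 193, 282 and 276. Sox13, a factor of gamma-delta cells, had 0, 0 and 83 reads in BALB/c against 178, 0 and 2 in SKG. SKG replicate 3 had the most Tcrg-C2 and Tcrg-C4 reads and, in CPM, the most Gpr83, while its Susd2 at 88.8 CPM was close to that of SKG replicate 1 at 88.0. The gate as the study describes it also required TCRβ at the surface, which gamma-delta T cells lack. The part of these cells in the levels of Susd2 and Gpr83 was not tested. The sums for double-positive thymocytes (180 to 548 CPM in BALB/c, 186 to 401 in SKG), B cells (1.73 to 6.84 and 3.11 to 8.38), myeloid cells (99.0 to 228 and 75.3 to 277) and mature iNKT1 and NK cells (165 to 298 and 202 to 304) overlapped. So did those for dendritic, thymic epithelial, erythroid and stromal cells. Most of the sum for mature iNKT1 and NK cells came from Il2rb, at 224 ± 68.0 CPM (SD, n = 3) in BALB/c against 240 ± 50.7 (SD, n = 3) in SKG. Nkg7 of that list was lower in SKG without overlap, at 362, 428 and 673 reads against 51, 0 and 112 (log2 fold change -3.01 ± 1.77 SE, edgeR adjusted p = 0.972). Such a lack of overlap was found for 7.12% of tested genes. Genes against which cells had been sorted were at low to moderate levels in both genotypes, with Cd44 at 8.47 ± 5.37 CPM (SD, n = 3) in BALB/c against 1.89 ± 2.71 (SD, n = 3) in SKG, Cd4 at 19.3 ± 12.9 and 24.1 ± 8.33, and Cd8a at 59.8 ± 53.6 and 43.3 ± 19.9. Cd24a, on which cells were selected, was at 25.1 ± 24.01 CPM (SD, n = 3) in BALB/c against 70.4 ± 33.4 (SD, n = 3) in SKG, with a log2 fold change of 1.49 ± 0.80 (SE, edgeR adjusted p = 0.959) that became 2.63 without BALB/c replicate 1. Without SKG replicate 3, the log2 fold change of Susd2 was 4.62 and that of Gpr83 was 2.94. These values do not test the part of gamma-delta T cells, since SKG replicates 1 and 2 still held 339 and 342 Tcrg-C4 reads.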

How the data were processed

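Total RNA of sorted stage 0 iNKT cells was amplified and sequenced as 50 nt single reads. Kit and cycles differ between sources, with SMART-Seq v4 and 18 preamplification cycles in the labels and another kit in the study's methods. Per the submitters' processing notes, the authors aligned reads to GRCm38 with HISAT2 2.1.0 and used featureCounts (Subread 1.4.4), and per the study's methods the alignment was unstranded and reads were counted over Ensembl exons. The deposited table holds raw read counts for 48397 genes. A second deposited table holds the authors' DESeq2 1.14.1 comparison and was not used.

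The counts were fitted with edgeR 4.0.16 (R 4.3.3): filterByExpr, TMM factors and the quasi-likelihood F test over 12312 genes, without covariates. Standard errors are the size of the log2 fold change over the root of F. DESeq2 1.42.0 and limma 3.58.1 were alternatives. EdgeR with its main settings, DESeq2 without shrinkage and limma-voom were tested on simulated data, and the other settings were not. Positions and lengths came from GENCODE M21. Replicates were pools of mice, and PCR copies cannot be told from molecules.

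Both genes and all lists were chosen with earlier results of these data known. Genes named besides them were the 5 most alike, the 3 most abundant of each list and those with an unadjusted p under 0.05. The nearest neighbours and sort markers were also named. Lgals1, Il2ra, Il2rb, Gnaq, Gna11, Tsc22d3, Tnfrsf18, Ctla4, Nrp1 and the markers of other cells were named for their role after their values had been seen.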

Additional observations from a re-analysis of the deposited data

How the results depend on the processing

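EdgeR called 0 genes, with 671 at an unadjusted p under 0.05, and it called 2 without a filter on low counts and 1 with the stricter filter. DESeq2 called 370 genes without shrinkage and 229 with shrinkage. The count was 0 with limma-voom, with other factors, with each library left out in turn and with the replicate number as a block. The replicate numbers did not pair the samples, since residuals of same-numbered libraries correlated between -0.145 and -0.00962, and those sharing a library number between -0.0384 and 0.00289. With the replicate block, the log2 fold change of Susd2 was 4.63 and that of Gpr83 3.11. The block on library number, which leaves out BALB/c replicate 3 and SKG replicate 1 from the contrast, called 0 genes and gave 4.94 for Susd2, a move larger than the spread between replicates, and 3.13 for Gpr83. In all other settings both kept their value within that spread.

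Of 788 values of 53 named genes, 731 kept their direction and side of the threshold, 27 passed the threshold under DESeq2 alone and 30, in 13 genes, reversed. With RLE factors Ankrd49 was at 0.0071 and Gnai2 at 0.014, with DESeq2 without shrinkage at 0.011 and 0.018, and with shrinkage at 0.0090 and 0.017. With the block on library number Cabin1 was at -0.16 and Ggt5 at 0.085. With 1 library left out, log2 fold changes ranged from -0.72 to 0.40 for Ankrd49, from -0.13 to 0.78 for Cd4, from -0.89 to 0.57 for Cd8a, from -1.38 to 0.43 for Cd8b1, from -4.98 to 1.37 for Ggt5, from -0.14 to 0.077 for Gnai2, from -0.34 to 0.55 for Gpr171, from -0.15 to 0.0040 for Gpr174, from -0.052 to 0.26 for Izumo1r, from -0.056 to 0.14 for Nr3c1, from -6.17 to 0.045 for Susd1 and from -0.14 to 0.98 for Susd3. The cause was not tested. The median of 8 of 11 gene lists, neighbours included, changed sign in at least 1 setting. With 3 libraries a genotype and a coefficient of variation of 91.8%, an adjusted p that misses the threshold does not show that a gene was level.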
